A study of Mus musculus with 13 samples.

Results

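The stretch of mouse chromosome 8 from 85 to 100 Mb (mm10) was examined for 5-hydroxymethylcytosine (5hmC) in knee cartilage. Its members were the regions in the authors' 3 deposited tables that start inside this 15 Mb block, without those whose nearest gene is Fto. The tables compare WT DMM with WT sham, MUT DMM with WT DMM, and MUT DMM with WT sham, and they held 195, 474 and 737 such regions in that order, which is 1406 of 181833 listed regions. The Fto rows left out numbered 6, 39 and 63. The block was picked because its regions had been seen to be more often higher in the mutant than those of the rest of chromosome 8, so the shares of higher regions and the levels in the mutant tables are a description and carry no test of the block.

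5hmC arises when TET enzymes oxidise 5-methylcytosine. It is a step on the way to demethylation and can also persist as a mark of its own, often in the bodies and enhancers of active genes. TET1 is a member of this enzyme family, and the title of the study names its role in osteoarthritis, the loss of joint cartilage. The block holds the Iroquois homeobox genes Irx3, Irx5 and Irx6, transcription regulators such as Sall1, Tox3, Zfp423 and Chd9, the matrix metalloproteinase Mmp2, the innate immune receptor Nod2, and clusters of metallothionein and carboxylesterase genes.

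The labels list 13 samples: 4 groups of 3 and a background control prepared without the glucosyltransferase. All mice were males of the mixed strain B6;129S4, sampled 6 weeks after surgery, and their age is given both as 3 to 4 months and as 4 to 6 months. WT DMM and WT sham are labelled TET1+/+, and MUT DMM is labelled TET-/-, with no cell type or allele named. DMM, destabilisation of the medial meniscus, makes the joint unstable; here the meniscus was taken out, while in sham knees the joint was opened only. Each control knee is said to lie on the opposite leg, so a sham knee may come from an operated mouse. Neither the MUT sham libraries nor the background control were analysed here. Levels therefore include any background, and the genotypes were not compared without surgery. The tables list regions that differ, so cartilage genes cannot check the tissue label: Acan had 0, 2 and 1 listed regions and Col2a1 had 1, 3 and 6.

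Libraries stood apart in depth. Of the 3 MUT DMM entries, 2 were identical in value. They were counted once in the library values, folds and limma fits, which left a deeper and a shallower MUT DMM library. These held 5889464 and 407929 reads in the regions listed against WT DMM. Regions were called higher or lower by the deposited group means, which cover all 3 entries, and the authors' p-values were taken as deposited. With the 2 counted once, the block's share of higher regions stayed at 55.8% against WT DMM and at 63.8% against sham. The WT DMM library listed first was near-empty, with 52972 reads there against 1961515 and 2899132 in the other WT DMM libraries. It was at 0 in 71.7% of block regions in that table, and among the block regions listed against sham it held 2 reads in all. A single read of the shallower MUT DMM library was worth 3.55 normalized counts against WT DMM and 9.45 against sham, so a value of 18.89 there stands for 2 reads. The sham libraries held between 2136912 and 7860851 reads in the regions listed against MUT DMM. The 2 mutant tables share the MUT DMM libraries and each table has its own scale, so their values are set side by side and are not independent of each other.

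The method reads cytosines at the sequence CCGG. To show how many such sites lie in a whole promoter, 5 promoters overlapped by changed regions are printed. Changed means an authors' adjusted p under 0.05. The promoters run from 250 bases before to 50 after the start of transcription in RefSeq (GRCm38.p6, the coordinates of mm10), 5′ to 3′ along the gene, with each CCGG in capitals. CCGG reads the same on both strands and was searched without overlap.
Rbl2, plus strand, chr8:91069807-91070106: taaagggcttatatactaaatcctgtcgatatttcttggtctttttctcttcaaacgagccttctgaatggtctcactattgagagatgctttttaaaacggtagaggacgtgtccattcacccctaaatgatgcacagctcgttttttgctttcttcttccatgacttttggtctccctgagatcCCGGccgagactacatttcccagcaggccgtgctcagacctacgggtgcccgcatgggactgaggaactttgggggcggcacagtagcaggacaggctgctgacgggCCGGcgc
Nod2, plus strand, chr8:88647097-88647396: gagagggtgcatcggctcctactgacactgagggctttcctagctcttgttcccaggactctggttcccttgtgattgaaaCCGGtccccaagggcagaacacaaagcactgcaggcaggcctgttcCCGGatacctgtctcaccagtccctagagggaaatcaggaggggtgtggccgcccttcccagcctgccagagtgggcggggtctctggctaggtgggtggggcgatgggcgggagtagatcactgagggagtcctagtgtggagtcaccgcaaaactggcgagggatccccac
Tox3, minus strand, chr8:90348203-90348502: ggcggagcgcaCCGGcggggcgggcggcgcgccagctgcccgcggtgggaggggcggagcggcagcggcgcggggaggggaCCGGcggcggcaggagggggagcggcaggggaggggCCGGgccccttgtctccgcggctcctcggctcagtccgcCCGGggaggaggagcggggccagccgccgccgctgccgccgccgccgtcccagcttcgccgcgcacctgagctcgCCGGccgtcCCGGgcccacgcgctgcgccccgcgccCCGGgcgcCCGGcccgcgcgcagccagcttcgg
Sall1, minus strand, chr8:89043463-89043762: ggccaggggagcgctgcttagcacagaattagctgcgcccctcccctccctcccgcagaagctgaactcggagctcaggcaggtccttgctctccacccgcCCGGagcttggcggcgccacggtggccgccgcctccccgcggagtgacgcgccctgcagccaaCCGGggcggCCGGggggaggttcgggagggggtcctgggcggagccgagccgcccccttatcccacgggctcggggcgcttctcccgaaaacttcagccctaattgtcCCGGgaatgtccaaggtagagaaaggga
Slc12a3, plus strand, chr8:94328958-94329257: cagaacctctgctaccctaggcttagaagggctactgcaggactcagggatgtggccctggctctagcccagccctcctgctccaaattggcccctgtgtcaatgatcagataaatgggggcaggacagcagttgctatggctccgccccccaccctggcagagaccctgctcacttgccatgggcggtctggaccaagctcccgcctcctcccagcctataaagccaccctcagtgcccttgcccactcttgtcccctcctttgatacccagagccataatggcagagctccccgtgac
Rbl2 and Nod2 hold 2 CCGG each, Tox3 holds 8, Sall1 holds 4 and Slc12a3 holds 0. These counts are for the whole promoter, while a region can cover only part of it and can reach beyond it. The stretch of the Sall1 promoter that its region covers holds no CCGG. Sites outside the promoters were not counted. In the block, 104 of 199 RefSeq promoters (52.3%) held at least 1 CCGG, against 53.5% on the rest of chromosome 8 and 52.8% of all 32851 promoters.

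At the Rbl2 promoter, which belongs to a retinoblastoma family gene that restrains the cell cycle, the region chr8:91069861-91070080 was higher in the mutant in both tables. It held 17.55 and 21.33 normalized counts in MUT DMM against 0, 6.77 and 4.87 in WT DMM. On the scale of the other table it held 55.23 and 56.68 against 22.27, 24.31 and 34.40 in sham. The groups did not overlap in either table. At the promoter of Nod2, a sensor of bacterial cell wall, chr8:88647141-88647360 held 36.82 and 47.24 in MUT DMM against 16.97, 20.84 and 21.08 in sham, again without overlap. At the promoter of Tox3, a high mobility group box factor, chr8:90348281-90348500 held 47.03 and 39.10 in MUT DMM against 0, 41.37 and 34.09 in WT DMM, so the groups overlapped and the low WT mean came from the near-empty library. The region chr8:89043721-89043920, which covers 42 bases of the promoter of the zinc finger repressor gene Sall1, held 6.63 and 18.89 in MUT DMM against 0, 0 and 0.28 in sham. These sham values stand for 1 read in all, and the mutant values for 9 and 2 reads. Slc12a3 encodes a sodium and chloride transporter best known in the kidney. The region chr8:94328881-94329160, which overlaps its promoter, was lower in the mutant, at 6.63 and 0 against 16.44, 30.10 and 27.74 in sham. That promoter holds 0 CCGG, and sites outside it were not counted. All 14 changed block regions at promoters in MUT DMM against WT DMM were higher, and on the rest of chromosome 8 promoter regions also were mostly higher there, 105 against 20 lower. Against sham 8 were higher and 4 lower in the block, beside 36 and 19 on the rest of the chromosome. In WT DMM against WT sham 0 of 195 block regions lay at a promoter, beside 9 of 2032 elsewhere on the chromosome.

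The block was more densely listed in the mutant tables than the average of the rest of its chromosome. It held 31.6 listed regions per Mb in MUT DMM against WT DMM, where the rest of chromosome 8 held 26.9, and 49.1 per Mb against 29.8 in MUT DMM against WT sham. In WT DMM against WT sham the order was opposite, with 13.0 per Mb in the block and 18.1 outside it. The block thus contributed 8.76% of the chromosome's listed regions after DMM in WT knees, 13.6% in the mutant table against WT DMM and 18.1% in that against sham.

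**Figure D1:**
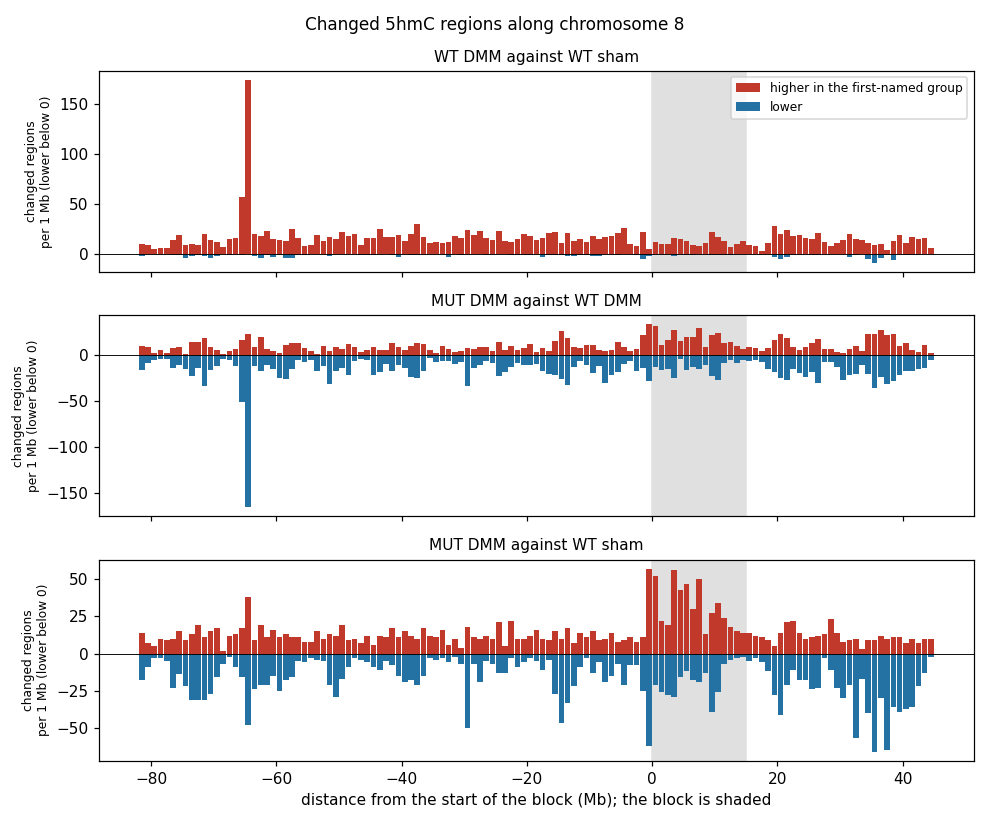
Changed regions per 1 Mb along chromosome 8, by distance from the start of the block (Mb); bars above 0 count regions higher in the first-named group and bars below 0 count lower ones, and the block is shaded. For MUT DMM against WT sham, 11 of the 15 block bins held more higher than lower regions, against 49 of 112 elsewhere. In every panel the tallest bar in each direction lies outside the block.

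In MUT DMM against WT DMM, 473 of the 474 block regions were changed, where 98.9% of all listed regions were. Of these, 264 were higher and 209 lower, so 55.8% were higher (exact Clopper-Pearson 95% interval across regions 51.2 to 60.3). On the rest of chromosome 8 the share was 34.7% (32.9 to 36.4). Of all listed regions, 34.2% were changed and higher and 64.7% changed and lower. Against WT sham, 727 of 737 were changed, against 99.3% of all listed, with 464 higher and 263 lower. The share higher was 63.8% (60.2 to 67.3) in the block and 41.3% (39.6 to 43.0) on the rest of the chromosome. Of all listed regions, 43.2% were changed and higher and 56.1% changed and lower. These intervals cover counting error over regions that share libraries and neighbours. Leaving out the third-listed WT DMM library moved the share against WT DMM to 67.0%.

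Cut into windows of 15 Mb, the rest of chromosome 8 gave shares of 26.4% to 40.3% against WT DMM and of 21.0% to 53.8% against sham, all below the block. Inside the block the share varied. Against sham it ran from 40.4% in the megabase from 87 Mb, where Zfp423 lies, to 87.5% in that from 99 Mb, and it was 79.7% in that from 90 Mb, which holds Tox3 and part of Chd9. At the lower edge, the megabase from 84 Mb, just outside, held 120 listed regions in MUT DMM against WT sham with 57 higher and 62 lower, and the 73 of the megabase from 85 Mb were 52 higher and 21 lower. The share higher was 30.6% in the megabase from 83 Mb, 47.9% in that from 84 Mb and 71.2% in that from 85 Mb. Beyond the upper edge, 14 of 19 changed regions were higher in the megabase from 100 Mb, 12 of 15 in that from 101 Mb, 11 of 17 in that from 102 Mb and 9 of 21 in that from 103 Mb, so higher regions were still the larger number just past 100 Mb. The last region before the block, chr8:84997721-84998200 in the microtubule linker gene Hook2, was lower in the mutant, at 30.19 and 18.89 against 83.25, 100.72 and 105.97 in sham. The first member, chr8:85001481-85001680 in the same gene, was higher, at 2.21 and 9.45 against 0, 0 and 0.55. This member lay near the floor, as its 9.45 in the shallower MUT DMM library stands for 1 read. At the upper edge the last member, chr8:99961121-99961360, held 67.01 and 47.24 against 46.66, 28.94 and 35.23, and the first region beyond, chr8:100022781-100023000, held 20.62 and 37.79 against 10.08, 8.10 and 3.88. Both are nearest to Gm15210 and both were higher in the mutant.

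The sizes of the differences were described next. Whether a median log2 ratio is above or below 0 follows from which direction more regions took, so its sign restates the shares above. The median log2 ratio of group means, each with 1 added, was 0.81 in the block and -0.63 on the rest of chromosome 8 in MUT DMM against WT DMM. It was 1.05 and -1.08 in MUT DMM against WT sham. Over all listed regions the medians were -0.63 and -0.96. The median higher block region held 18.5 normalized counts in the mutant and 3.46 in WT DMM, and the median fold was 4.75, while higher regions on the rest of the chromosome had 33.3 and 16.0, with a fold of 2.05. Against sham, the median higher block region held 26.6 in the mutant and 4.81 in sham, and the median fold was 4.62. Elsewhere on the chromosome these were 45.3, 20.5 and 2.35. The median WT level of higher members was thus below that of higher regions elsewhere on the chromosome.

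**Figure D2:**
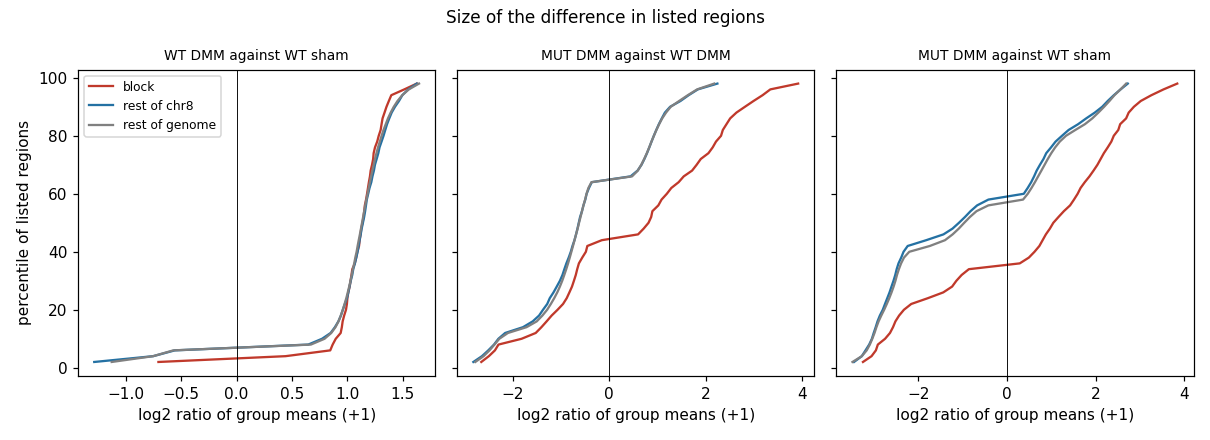
Percentile of listed regions (vertical axis) against the log2 ratio of group means with 1 added (horizontal axis), for the block, the rest of chromosome 8 and the rest of the genome in each table. In both mutant tables the block curve lies to the right, with a 90th percentile of 2.82 against WT DMM and 2.87 against sham; in WT DMM against WT sham the curves lie together.

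The level in the comparison group was then taken into account. Changed regions were divided into quartiles of the second group's mean over the whole table. Against WT DMM the lowest quartile, up to 5.22 normalized counts in WT DMM, held 46.3% of the changed block regions, and 150 of these 219 were higher (68.5%), where 15.8% were on the rest of chromosome 8. In the quartiles above it the block had 26.6%, 54.7% and 50.7% higher, and the rest of the chromosome 20.1%, 57.5% and 44.3%. Against sham the lowest quartile, up to 5.47 in sham, had 247 of 281 block regions higher (87.9%) against 65.2% elsewhere on the chromosome. The next quartile had 46.7% against 8.19%, the third 43.0% against 34.3%, and the highest 58.1% against 61.6%. The block's share was thus furthest above that of the rest of the chromosome in the lowest quartile of WT DMM level and in the quartile of sham level just above the lowest.

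**Figure D3:**
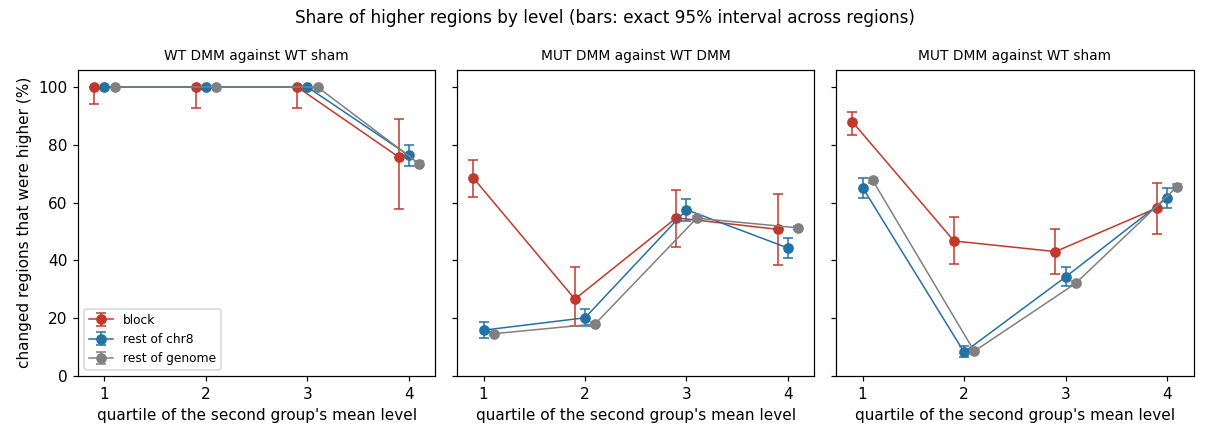
Percent of changed regions that were higher in the first-named group, by quartile of the second group's mean level, with exact 95% intervals across regions. With sham as the second group of MUT DMM, the block's lowest quartile is at 87.9% and the rest of chromosome 8 at 65.2%; in WT DMM against WT sham every point of the lowest 3 quartiles is at 100%.

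Each library's share of the chromosome's listed level that fell in the block does not depend on how the library was scaled. It does depend on which regions are listed, and these were selected for differing between the groups compared. The sham libraries gave 3.74% to 4.64% when listed with WT DMM and 10.7% to 11.7% when listed with MUT DMM. The block was also picked on the mutant tables, so the shares below describe it and test nothing. In the table of MUT DMM with WT DMM the block took 10.3% in the deeper and 10.7% in the shallower MUT DMM library, and 8.63%, 7.73% and 6.86% in the WT DMM libraries, in the order listed. The mean was 10.5% ± 0.255 (SD, n = 2) in MUT DMM and 7.74% ± 0.886 (SD, n = 3) in WT DMM, a difference of 2.77 percentage points. In the table with sham, both MUT DMM libraries gave 15.4%, while the sham libraries gave 10.7%, 11.7% and 11.7%. The means were 15.4% ± 0.00549 (SD, n = 2) and 11.4% ± 0.593 (SD, n = 3), 3.99 points apart. The groups did not overlap in either table. Over the 5 Mb from 90 Mb alone the differences were 0.749 and 0.915 points.

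**Figure D4:**
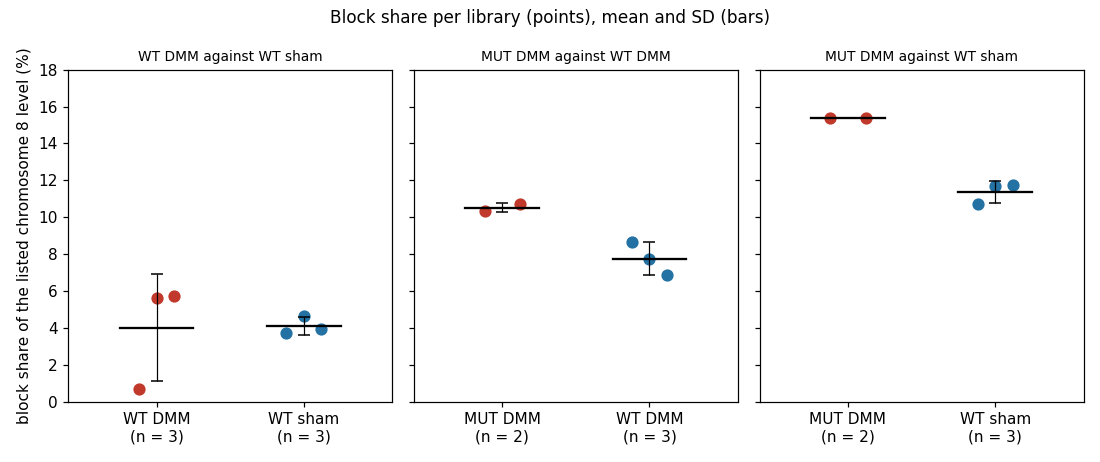
Block share of the listed chromosome 8 level in each library (percent, points), with the group mean and SD, in the 3 tables. Both MUT DMM libraries lie above every WT library they were listed with, in a block picked for being more often higher in the mutant. The near-empty WT DMM library is the low point at 0.658% in WT DMM against WT sham.

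Members were counted by whether the libraries of the groups overlapped. Against WT DMM, 217 block regions (45.8%) had every MUT DMM library above every WT DMM library, where 22.3% did on the rest of chromosome 8 and 23.4% among all listed regions. Against sham, 393 did (53.3%), against 31.9% and 32.8%. Regions with every MUT DMM library below were 77 (16.2%) against WT DMM, where 18.5% of all listed were, and 237 (32.2%) against sham, where 49.2% were. Leaving out the near-empty WT DMM library gave 224 above (47.3%, with 24.6% of all listed) and 169 below (35.7%, with 53.0% of all listed).

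Some members were read in the mutant and in no WT library. Against WT DMM there were 28 regions (5.91%) read in both MUT DMM libraries and at 0 in all 3 WT DMM libraries, against 0.166% on the rest of chromosome 8 and 0.189% of all listed. They lay in 11 different megabases, and 13 of them were inside genes. The deeper MUT DMM library read them with 16 to 450 reads, median 36.5, and the shallower with 1 to 32, median 2. Against sham there were 18 (2.44%), against 0.838% and 1.07%, and they rested on fewer reads, 2 to 66 (median 3) in the deeper library. The reverse, read in all sham libraries and at 0 in both MUT DMM libraries, held for 79 regions (10.7%), against 22.2% on the rest of the chromosome and 21.1% of all listed. Against WT DMM the reverse held for 3 regions, where 0.823% of all listed did.

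The deepest of these was chr8:86231741-86232360, nearest to the small RNA gene model Gm23904 and outside any RefSeq gene. It held 105.29 and 113.74 normalized counts in MUT DMM, from 450 and 32 reads, against 0, 0 and 0 in WT DMM. Against a floor of 3 reads over the WT DMM group this is at least 112-fold higher. On the scale of the sham table it held 331.36 and 302.31 against 1.06, 0 and 0, where the sham value stands for 2 reads. The region chr8:91752441-91752860, nearest to the gene model D230002A01Rik, held 44.18 and 37.79 in MUT DMM against 0 in every sham library, at least 86.8-fold higher against a floor of 3 reads over the sham group. In WT DMM it was also at 0, against 14.04 and 14.22 in MUT DMM. The groups were far apart at both regions in both tables.

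limma was fitted to log2 values with 1 added over each whole table, with Benjamini-Hochberg adjustment. These regions had already been selected by the authors' p-value, and the block was picked on the mutant tables, so limma's calls there are a description and not an independent check. Between MUT DMM and WT sham it called 240 block regions higher (32.6%) and 177 lower (24.0%), where the rest of chromosome 8 had 6.07% higher and 40.9% lower and all listed regions 6.38% and 39.0% (45.4% in either direction). Without regions whose mean was under 5 normalized counts limma called 0 of 566 block regions, with 347 at an unadjusted p under 0.05. It then also called 0 of all 47852 regions kept, with 17654 at an unadjusted p under 0.05. Without the second-listed sham library 237 block regions were called and without the third-listed 227, in place of 417. Over all listed regions the calls fell likewise, to 19640 and 20045 in place of 32892. Between MUT DMM and WT DMM limma called 0 block regions, with 122 at an unadjusted p under 0.05. Of all 65969 listed it called 0, with 4938 at an unadjusted p under 0.05.

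The Iroquois genes encode homeodomain factors that pattern limb, heart and nervous system. Changed regions nearest to them numbered 13 higher and 6 lower in MUT DMM against WT DMM and 16 higher and 7 lower against sham. The median log2 ratios were 1.21 and 1.65, beside 0.81 and 1.05 in the block and -0.63 and -0.96 over all listed regions. In the whole block 55.8% and 63.8% of changed regions were higher, and 34.2% and 43.2% of all listed were changed and higher. Against sham most of the Iroquois regions lay outside the genes. The region chr8:92416381-92416800, between Irx5 and Irx6 and nearest to Irx5, held 29.45 and 18.89 in MUT DMM (40 and 2 reads) against 0, 0 and 0 in sham. That is at least 51.2-fold higher against the floor of 3 reads. With the same bounds it held 9.36 and 7.11 against 0, 0 and 0 in WT DMM. Nearest to Irx6, chr8:92615761-92616160 held 53.02 and 37.79 against 7.42, 2.32 and 5.27 in sham, 9.07-fold higher and without overlap. Both of the changed Irx3 regions in MUT DMM against WT DMM were lower by their means, the one of smaller authors' adjusted p at 1.64 and 3.55 against 0, 5.27 and 14.61, with overlapping groups.

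Among the transcription and chromatin genes Sall1, Tox3, Zfp423, Rbl2, Chd9 and Brd7, 38 changed regions were higher and 34 lower against WT DMM, and 83 higher and 40 lower against sham. Over the whole block 55.8% and 63.8% of changed regions were higher, and of all listed regions 34.2% and 43.2% were changed and higher. The counts varied from gene to gene. Tox3 had 26 higher and 5 lower regions against sham, and Chd9, a chromatin remodeller, had 26 and 9. Zfp423, a zinc finger factor of early fat and brain precursors, had 9 higher and 21 lower. Nearest to Tox3, chr8:90507761-90508340 held 30.19 and 18.89 in MUT DMM against 5.30, 1.16 and 4.99 in sham, 6.43-fold higher. Nearest to Chd9, chr8:90816541-90816840 held 26.51 and 18.89 against 0, 2.32 and 2.77, 13.4-fold higher. Inside Zfp423, chr8:87854621-87855080 held 17.67 and 18.89 against 49.31, 55.57 and 48.27, 2.79-fold lower. In these Tox3, Chd9 and Zfp423 regions the groups did not overlap. Against WT DMM, Zfp423 had 11 higher and 11 lower regions and Chd9 had 11 and 10. Upstream of Sall1 in the gene model Gm3134, chr8:89065541-89065960 held 48.60 and 56.68 against 9.01, 2.32 and 4.44 in sham, and 15.44 and 21.33 against 0, 3.01 and 2.44 in WT DMM, the latter 10.1-fold higher. Nearest to Brd7, a bromodomain subunit of chromatin remodelling complexes, chr8:88388801-88389380 held 18.41 and 18.89 against 0, 2.32 and 3.88 in sham, 9.02-fold higher.

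**Figure D5:**
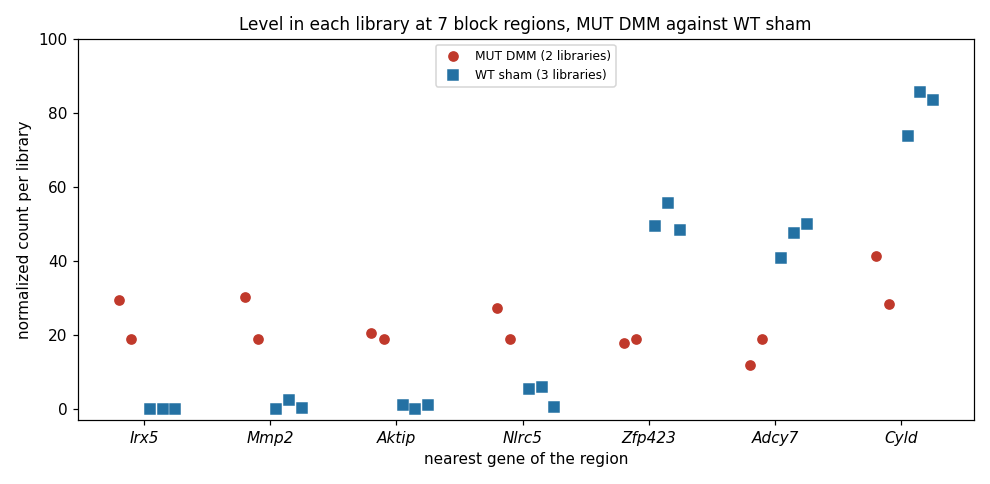
Normalized count in each library at 7 block regions, named by nearest gene, in MUT DMM (circles, 2 libraries) and WT sham (squares, 3 libraries); the regions had the smallest authors' adjusted p in their gene or, for Adcy7, among its lower regions. MUT DMM lies above sham at the regions of Irx5, Mmp2, Aktip and Nlrc5 and below it at those of Zfp423, Adcy7 and Cyld, with no overlap at any of the 7. The 7 were picked from the named regions, so the lack of overlap describes these regions only. Other regions of a gene can go the other way: Nlrc5 had 1 higher and 5 lower.

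The matrix and adhesion genes included Mmp2, a gelatinase that cleaves denatured collagen, and Mmp15, a membrane-bound metalloproteinase. The list held these genes with Cdh8 and the adhesion receptors Adgrg1, Adgrg3 and Adgrg5. It had 11 higher and 7 lower regions against WT DMM and 21 and 10 against sham. Over the whole block 55.8% and 63.8% of changed regions were higher, and of all listed regions 34.2% and 43.2% were changed and higher. Mmp2 had 6 higher and 0 lower against WT DMM and 7 and 1 against sham. Outside Mmp2 and nearest to it, chr8:92816601-92817160 held 30.19 and 18.89 in MUT DMM against 0, 2.32 and 0.28 in sham, 28.3-fold higher. Against WT DMM it held 9.59 and 7.11 against 0, 0 and 0, at least 8.56-fold higher. Inside Mmp2 a strongly marked region, chr8:92836821-92837240, held 174.51 and 141.71 against 100.75, 96.09 and 94.59 in sham, 1.63-fold higher. The single lower Mmp2 region, chr8:92847481-92847700, held 33.87 and 28.34 against 55.68, 57.89 and 60.75. Near Mmp15, chr8:95377241-95377600 was lower, at 2.21 and 9.45 against 16.97, 15.05 and 20.53 in sham. In Cdh8, a cadherin of synapses, all 6 changed regions against sham were higher, while against WT DMM 1 was higher and 1 lower.

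The immune genes did not share a direction. Ccl22 was on the list but had no listed region. Nod2, Nlrc5, Ccl17, Cx3cl1 and Adcy7 had 6 higher and 13 lower regions against WT DMM, with a median log2 ratio of -0.90. Over all listed regions, 64.7% were changed and lower there and the median was -0.63. Over the whole block 55.8% of changed regions were higher there and the median was 0.81, so the list lay below its block. Against sham the immune genes had 14 higher and 11 lower, all from Nod2, Nlrc5 and Adcy7, as Ccl17 and Cx3cl1 had no listed region. Over the whole block 63.8% of changed regions were higher against sham, and 43.2% of all listed were changed and higher. In Nlrc5, a transactivator of MHC class I genes, 1 region was higher and 5 lower against sham. The higher one, chr8:94493921-94494420, held 27.24 and 18.89 against 5.30, 5.79 and 0.55. In Adcy7, an adenylyl cyclase, 9 were higher and 3 lower, and both directions occurred within the gene. There chr8:88316381-88316760 held 47.13 and 37.79 against 12.20, 12.73 and 14.70 in sham, while chr8:88296461-88297200 held 11.78 and 18.89 against 40.83, 47.47 and 49.93. In Nod2, chr8:88660821-88661200 held 9.57 and 9.45 against 0, 1.16 and 1.11 in sham, and chr8:88648921-88649200 was lower against WT DMM, at 0.47 and 0 against 9.56, 6.77 and 7.31.

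The signalling, cilium and ubiquitin genes had 8 higher and 7 lower regions against WT DMM and 11 and 15 against sham, with a median log2 ratio of -0.99 against sham. Over all listed regions the median against sham was -0.96 and 56.1% were changed and lower, so the list lay near that background. Over the whole block the median was 1.05 and 63.8% of changed regions were higher, so the list lay below its block. Against WT DMM 55.8% of changed block regions were higher. Nkd1 inhibits canonical Wnt signalling, and its 14 changed regions against sham were 7 higher and 7 lower. In it, chr8:88590501-88590980 held 53.02 and 37.79 against 22.80, 22.00 and 19.70. Just outside the bounds of Cyld, a deubiquitinase that restrains NF-kB, chr8:88753001-88753400 was lower, at 41.24 and 28.34 against 73.71, 85.67 and 83.50. Where Aktip, a telomere and vesicle protein gene, overlaps Rbl2, chr8:91122101-91122360 held 20.62 and 18.89 against 1.06, 0 and 1.11, 27.3-fold higher. Rpgrip1l encodes a protein of the ciliary transition zone, and its 4 changed regions against WT DMM were all lower by their means. At the one of smallest authors' adjusted p, chr8:91249621-91250000, the values were 0.70 and 3.55 against 0, 4.51 and 17.65, so the groups overlapped.

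The remaining lists had few regions or mixed directions. Over the whole block 55.8% of changed regions were higher against WT DMM and 63.8% against sham. Of all listed regions, 34.2% and 43.2% were changed and higher. Metabolism genes had 13 higher and 10 lower against WT DMM and 22 and 16 against sham. In Phkb, a subunit of the kinase that activates glycogen breakdown, chr8:85914021-85914320 held 42.71 and 28.34 against 13.79, 9.26 and 8.88 in sham, 3.34-fold higher. In Gpt2, a mitochondrial alanine transaminase, chr8:85526281-85526840 held 17.67 and 18.89 against 53.56, 59.04 and 64.36, 3.23-fold lower. Neuronal genes had 10 and 6 against WT DMM and 11 and 11 against sham. The metallothioneins, which bind metals, had 0 higher and 1 lower against WT DMM and 2 and 0 against sham. The carboxylesterases had 7 and 7, then 9 and 4. These are related genes of 1 family. How reads that match more than 1 place were handled was not given in the labels or headers, so their values are uncertain.

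The higher members were longer than higher regions elsewhere against sham: 14.9% were 500 bases or more, against 3.35% on the rest of chromosome 8, and the median length was 340 bases against 260. Within RefSeq gene bounds lay 43.5% of them and 51.6% of higher regions on the rest of the chromosome. Against WT DMM the shares of long regions were 4.92% and 3.48%. These are descriptions of regions that the authors' caller built with settings not given in the sources used here.

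In WT DMM against WT sham the block gave values close to those of the rest of its chromosome. Here 194 of 195 block regions were changed, where 99.7% of all listed were, and 186 were higher and 8 lower after DMM. Of all listed regions, 93.2% were changed and higher and 6.53% changed and lower. The share higher was 95.9% (92.0 to 98.2) in the block, 93.4% on the rest of chromosome 8 and 93.4% over the rest of the genome, and 15-Mb windows elsewhere on the chromosome ran from 85.8% to 96.4%. Higher members had medians of 7.20 normalized counts in WT DMM and 2.70 in sham, a median fold of 2.65, where the rest of the chromosome had 2.68. Once the third-listed WT DMM library was left out, 67.0% of changed block regions were higher. Tox3 had most changed regions, 10 higher and 0 lower, and the transcription and chromatin list had 19 and 0.

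The block share of the chromosome's listed level was 0.658%, 5.60% and 5.74% in the WT DMM libraries and 3.74%, 4.64% and 3.93% in the sham libraries. The means were 4.00% ± 2.89 (SD, n = 3) and 4.11% ± 0.474 (SD, n = 3), and a two-sided exact permutation test gave p = 1.0, where 3 libraries against 3 cannot go below 0.1. Without the near-empty library, WT DMM was 1.56 points above sham. The groups overlapped at almost every region: 1 member had all WT DMM libraries above all sham libraries (0.513%, with 1.0% of all listed) and 1 had all below (with 1.73% of all listed). Without the near-empty library 161 were above (82.6%), beside 79.6% of all listed. No member was at 0 in all WT DMM libraries and read in all sham libraries, as 0.0323% of all listed regions were. limma called 0 block regions, with 1 at an unadjusted p under 0.05. Of all 43378 listed it called 0, with 335 at an unadjusted p under 0.05. Without the near-empty library limma called 155 of the 195 and 32240 of all 43378, so most of the whole table was called then.

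Single regions of this comparison show how the libraries entered. Near Irx5, chr8:92380961-92381240 held 0, 16.01 and 9.37 in WT DMM against 2.56, 3.58 and 2.05 in sham, 3.10-fold higher by the means although the near-empty library was at 0. In Mmp15, chr8:95365001-95365240 was lower by its means, at 0, 32.02 and 6.25 against 26.59, 30.04 and 28.37. Nearest to Gm7191, chr8:97551261-97551500 was the one lower region whose groups did not overlap, at 0, 6.67 and 3.12 against 28.51, 15.74 and 42.55. In Aktip, chr8:91121901-91122220 was lower through 1 sham library, with 0, 2.67 and 3.12 against 76.56, 2.86 and 3.59.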

How the data were processed

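RRHP cuts DNA at CCGG with MspI, shields 5hmC with glucose and digests again, so that fragments with 5hmC at their ends survive 15 PCR cycles, per the labels' protocols. The submitters' processing notes name the build mm10 and the tools HISAT2 2.1.0, Trim Galore 0.5.0, bcl2fastq 2.20.0, bedtools and SAMtools without their settings. The region caller and the scaling were not given in the sources used here. Per the file headers, the authors deposited group means and p-values per region, together with the 3 normalized values of each group, a coverage signal. In every table the best window's p was 0.0001 or less, so regions without such a window are not listed; a few listed regions still had an adjusted p of 0.05 or more. The deposited log2 fold changes hold spreadsheet errors and were not used.

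The joined values carry no replicate numbers; libraries are named by their listed place. All values were whole multiples of 1 step per library within 0.02, read as 1 sequenced read. PCR reads without molecular identifiers are not independent molecules, so intervals and floors cover counting error only. Whether replicates came from separate animals is not stated beyond the word biological, so the limma and permutation p-values measure the spread between libraries. The authors' test is not named, so what spread their p-values measure is not known. No count model was run, because the values are joined, scaled and listed only for regions selected by p. Whole-table fits used limma 3.58.1 in R 4.3.3 on log2(value + 1) with Benjamini-Hochberg adjustment. Python 3.11.15, pandas 2.3.3, scipy 1.17.1 and matplotlib 3.10.9 did the rest. Folds are ratios of group means, and against a group at 0 they use a floor of 3 reads over the group.

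The block, the 9 gene lists and the tests were chosen with earlier results of these data known. Named regions were, per comparison, the region of smallest authors' adjusted p for each listed gene, the 3 of smallest adjusted p in each direction, the 5 genes with most changed regions, regions at 0 in 1 group, and the edges; promoter regions, further regions inside Mmp2, and values of a named region in the other mutant table were chosen after their values were seen. Genes were taken from the deposited nearest gene and checked against RefSeq bounds (GRCm38.p6), which give no exons.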

Additional observations from a re-analysis of the deposited data

How the results depend on the processing

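Depth is a limit: regions at 0 in all WT DMM libraries had a median of 2 reads in the shallower MUT DMM library. Regions without a window past the authors' p are not listed. Requiring a mean of at least 5 normalized counts gave a share higher of 91.8% in WT DMM against WT sham, 67.7% in MUT DMM against WT DMM and 70.6% in MUT DMM against WT sham. In the last, limma then made 0 calls, in the block and over all 47852 regions kept. Leaving out 1 library at a time gave 67.0% to 95.9%, 55.6% to 67.0% and 60.0% to 64.2% higher in the same order. The difference in block share then ran from -0.978 to 1.56 points in WT DMM against WT sham, reversing to 1.56 without the near-empty library and to 0.160 without the second-listed sham library. It ran from 2.33 to 3.22 against WT DMM and from 3.65 to 4.17 in MUT DMM against WT sham. The limma calls in the block then ran from 0 to 155, 0 to 0 and 227 to 517. Calls over all listed regions moved too. They were 32240 where the block had 155, 20045 where it had 227 and 48979 where it had 517. A block from 90 to 95 Mb gave differences in share of 0.749 and 0.915 points in the mutant tables; it holds fewer regions. A block from 84 to 97 Mb, chosen after seeing the data, gave 60.0% higher and 2.86 points in MUT DMM against WT sham, and capping values at the 99th percentile gave 4.59 points. The cause of these shifts was not tested. No paired analysis was possible because the joined values carry no replicate numbers.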
